A study of Mus musculus with 4 samples.

Results

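The microRNA (miRNA) hairpin miR-378a gives a pair of mature products, miR-378a-3p and miR-378a-5p, named for the arm of the hairpin from which each is cut. They were chosen by name, as the rows mmu-miR-378a-3p and mmu-miR-378a-5p of the deposited count table, which held both among its 847 rows. The 4 libraries, 1 per group, came from macrophages sorted from C57BL/6J mice of 6 to 8 weeks: AML spleen and AML bone marrow (BM), taken at day 18 after GFP+ MLL-AF9 leukaemia cells were transplanted into mice that were not irradiated, and normal spleen and normal BM. MLL-AF9 is a fusion oncogene that drives acute myeloid leukaemia (AML), and the study set the miRNAs of macrophages in leukaemia against those of the normal state. The labels give leukaemic mice a survival of 35 to 40 days, and they name neither the markers of the sort nor the number of mice behind a library. With 1 library per group no difference here has a replicate check, so each statement compares libraries, and intervals cover counting error only.

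Mir378a lies within the span of Ppargc1b in RefSeq's gene table of the mouse assembly GRCm38.p6. Ppargc1b encodes PGC-1beta, a transcriptional coactivator of mitochondrial and fatty acid oxidation genes, and miR-378a is made from its transcript. As background, the mature arms are known in mice to act on oxidative metabolism: miR-378a-3p on carnitine O-acetyltransferase and miR-378a-5p on the Mediator subunit MED13. In mouse macrophages miR-378a-3p is known as a miRNA that interleukin-4 induces and that targets the kinase Akt1, which ties it to alternative activation. Striated muscle and brown fat are tissues rich in it.

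Rows named miR-378b and miR-378c were also in the count table, and these come from hairpins elsewhere in the genome. Their mature sequences and that of miR-378d, which had no row, are shown because the reads of near-identical products can be hard to assign to a row. The sequences are from RefSeq (GRCm38.p6), 5′ to 3′, with the seed (bases 2 to 8) in capitals. Mature miR-378b is at chr11:88352839-88352858 on the plus strand, miR-378c at chr14:46954905-46954925 on the minus strand and miR-378d at chr10:126710355-126710376 on the minus strand.
miR-378b: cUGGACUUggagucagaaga
miR-378c: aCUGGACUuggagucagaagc
miR-378d: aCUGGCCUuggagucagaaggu

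The miR-378b and miR-378c sequences share an unbroken run of 19 bases, offset by a position, so that their seeds differ. Between miR-378c and miR-378d 19 of 21 positions hold the same base and the longest shared run is 14 bases. How the authors assigned a read that fits more than 1 row is not given in the sources used here, so the split of reads between the miR-378 rows is uncertain.

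The level of miR-378a-3p, the main product, was close in all 4 libraries. It had 865 counts in AML spleen, 1234 in AML BM, 1861 in normal spleen and 778 in normal BM. On counts per 1000000 reads (CPM) of the library scaled with TMM factors, a scaling that assumes most miRNAs do not differ, it stood at 4483 CPM in AML spleen (95% exact Poisson interval 4189 to 4792). The level was 4401 CPM in AML BM (4159 to 4653), 4746 CPM in normal spleen (4533 to 4967) and 3752 CPM in normal BM (3493 to 4025). Normal BM was thus the low library, and the intervals of the other 3 overlapped. On total counts and on totals that leave out the 10 most abundant miRNAs, AML spleen was the highest library in place of normal spleen, and normal BM was the lowest under every scaling tried. By count miR-378a-3p was in position 39 of 535 detected rows in AML spleen, 41 of 547 in AML BM, 35 of 680 in normal spleen and 46 of 505 in normal BM.

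The less abundant arm, miR-378a-5p, had higher values in the spleen libraries than in the BM libraries, but the tissue difference did not pass the test over the 4 libraries (edgeR log2 fold change 0.90, adjusted p = 0.758). It had 69 counts in AML spleen, 64 in AML BM, 205 in normal spleen and 49 in normal BM. These were 358 CPM in AML spleen (278 to 453), 228 CPM in AML BM (176 to 291), 523 CPM in normal spleen (454 to 600) and 236 CPM in normal BM (175 to 312). The order of levels was normal spleen, AML spleen, normal BM and AML BM, with the last pair in reverse order on the reduced totals. The intervals of AML spleen, normal BM and AML BM overlapped. That of normal spleen cleared the interval of AML spleen by about 1 CPM, and on total counts the ratio of AML spleen to normal spleen had an interval that held 1 (log2 ratio -0.30, -0.71 to 0.10). Total counts were 180227 in AML spleen, 271209 in AML BM, 435492 in normal spleen and 206652 in normal BM, so the 5p values of the 3 smaller libraries rest on few reads.

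**Figure D1:**
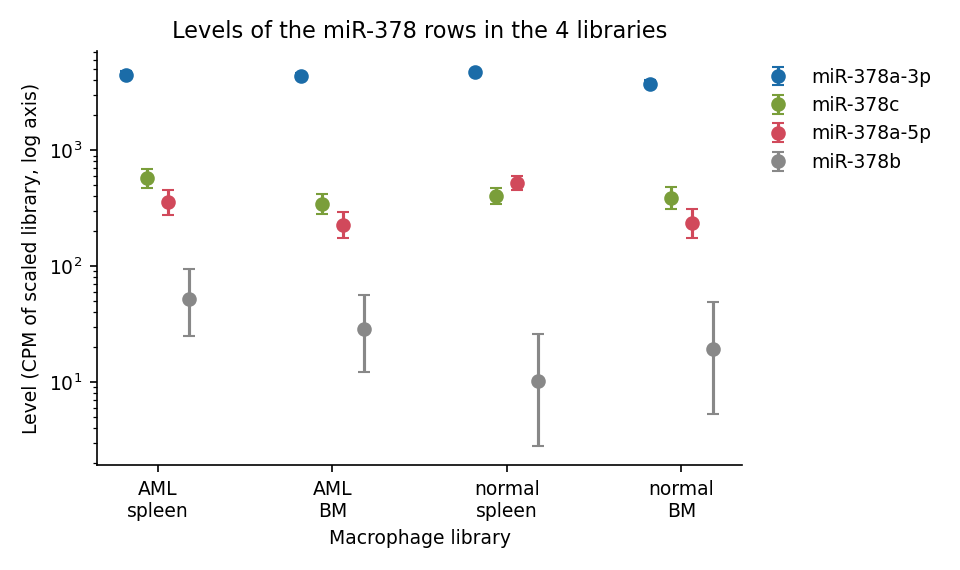
Levels of the miR-378 rows (CPM of the TMM-scaled library, log axis) in the 4 macrophage libraries, with 95% exact Poisson intervals as bars. miR-378a-3p sits between 3752 and 4746 CPM, while miR-378a-5p is highest in normal spleen at 523 CPM and miR-378c in AML spleen at 575 CPM.

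Measured against the other miRNAs, miR-378a-3p was among those whose level differed least between the libraries. For the 144 miRNAs that had 30 or more counts in all 4 libraries, the highest level of a miRNA was a median of 2.93 times its lowest. For miR-378a-3p this range was 1.27-fold, the sixth narrowest (position 6 of 144), and 36 of the 144 had a range under 2-fold. The miRNAs with narrower ranges were miR-27a-3p (1.07-fold), miR-23a-3p (1.20-fold), miR-26a-5p (1.24-fold), miR-103-3p (1.26-fold) and miR-671-3p (1.26-fold). The position of miR-378a-3p was 7 on total counts, 12 with DESeq2 size factors and 11 on the reduced totals. Counting error also widens the range of rows with few counts. Among the 84 miRNAs that had 100 or more counts in every library, miR-378a-3p was in position 6 with TMM factors and 7 on total counts. It was in position 9 with DESeq2 size factors and 11 on the reduced totals. For miR-378a-5p the range was 2.29-fold, position 50, and for miR-378c it was 1.66-fold.

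**Figure D2:**
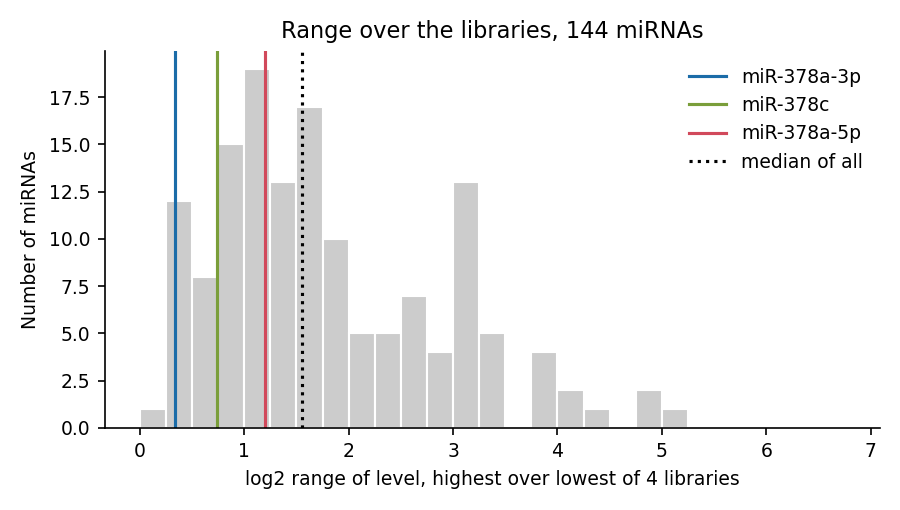
Histogram of the log2 range of level (highest over lowest of the 4 libraries, TMM scaling) for 144 miRNAs that had 30 or more counts in each library. miR-378a-3p is at 0.34, near the low end, miR-378c at 0.73 and miR-378a-5p at 1.20, all below the median of 1.55.

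Macrophages of leukaemic spleen had about as much miR-378a-3p as those of normal spleen and somewhat less miR-378a-5p. For miR-378a-3p, 4483 CPM in AML spleen against 4746 CPM in normal spleen gave a log2 ratio of -0.08 (95% exact conditional interval -0.20 to 0.03). The larger library of the pair had 30 or more counts for 216 miRNAs, and 7 of these had a ratio closer to 1. The sign of this ratio turned with the scaling, to 0.17 on total counts and 0.03 on the reduced totals, and it was -0.32 with DESeq2 size factors. The median log2 ratio of all 216 was itself -0.25, and it moved by 0.25 on total counts, by -0.24 with DESeq2 size factors and by 0.12 on the reduced totals. For miR-378a-5p, 358 CPM in AML spleen against 523 CPM in normal spleen gave -0.55 (-0.96 to -0.15). A miRNA was called different when its ratio was at least 2-fold and the interval excluded 1, and neither arm met this, beside 46.3% of the miRNAs compared (25% higher and 21.3% lower).

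In the marrow miR-378a-3p was slightly higher in the leukaemic library. At 4401 CPM in AML BM against 3752 CPM in normal BM it had a log2 ratio of 0.23 (0.10 to 0.36), a 1.17-fold difference larger than counting error. Of 216 miRNAs compared, 45 had a smaller ratio in either direction, and under the other scalings the ratio was 0.26 to 0.34. For miR-378a-5p, 228 CPM in AML BM against 236 CPM in normal BM gave -0.05 (-0.61 to 0.52), an interval that holds ratios of 0.655 to 1.43. Neither arm was called different, beside 25.5% of the miRNAs compared (13.4% higher and 12% lower).

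Normal spleen had more of both arms than normal BM. For miR-378a-5p, 523 CPM in normal spleen against 236 CPM in normal BM gave a log2 ratio of 1.15 (0.69 to 1.63), a 2.21-fold difference. This was the only call of an arm in the 4 comparisons, and it stood among 66.2% of 234 miRNAs called (30.8% higher and 35.5% lower). By these calls most miRNAs differed between the libraries, so the assumption behind the TMM factors was not met for this pair. On total counts the log2 ratio of miR-378a-5p was 0.99, just under 2-fold. For miR-378a-3p, 4746 CPM in normal spleen against 3752 CPM in normal BM gave 0.34 (0.22 to 0.46), with 34 of the 234 miRNAs closer to a ratio of 1. It was 0.18 on total counts, 0.58 with DESeq2 size factors and 0.41 on the reduced totals. The median log2 ratio of all 234 was itself 0.19.

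Between the leukaemic libraries the arms also differed in their pattern. For miR-378a-3p, 4483 CPM in AML spleen against 4401 CPM in AML BM gave a log2 ratio of 0.03 (-0.10 to 0.15), and 7 of 211 miRNAs were closer to a ratio of 1. Its sign turned with DESeq2 size factors, at -0.01. For miR-378a-5p, 358 CPM in AML spleen against 228 CPM in AML BM gave 0.65 (0.14 to 1.16), higher in spleen beyond counting error but short of 2-fold. Neither arm was called, beside 35.1% of the miRNAs compared (13.7% higher and 21.3% lower).

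**Figure D3:**
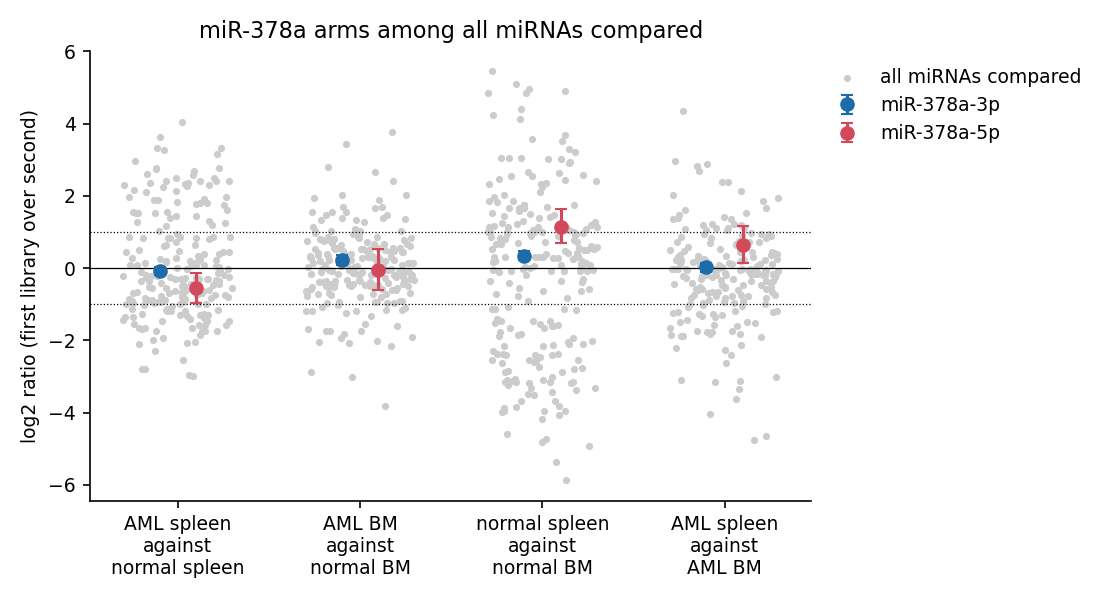
Log2 ratio of TMM-scaled counts, first library over second, for the miR-378a arms (95% exact conditional intervals) among all miRNAs that had 30 or more counts in the larger library (grey; a count of 0 entered as 3 counts). Dotted lines mark 2-fold. miR-378a-3p stays between -0.08 and 0.34 in the 4 comparisons, and miR-378a-5p crosses 2-fold once, at 1.15 in normal spleen against normal BM.

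Over both tissues together, neither arm passed the test of an AML effect in an additive model with terms for tissue and leukaemia. With edgeR's quasi-likelihood test the log2 fold change of AML over normal was 0.07 for miR-378a-3p (adjusted p = 0.998) and -0.30 for miR-378a-5p (adjusted p = 0.998). Of 246 miRNAs tested, 0% passed an adjusted p of 0.05 and 0 had an unadjusted p under 0.05, and DESeq2 and limma gave 0 by both measures. Where leukaemia acts differently in the 2 tissues this model reads the difference as noise, and its p-values measure the spread of these libraries alone. The tissue term of the same model gave a log2 fold change of spleen over BM of 0.90 for miR-378a-5p (edgeR adjusted p = 0.758) and 0.18 for miR-378a-3p (adjusted p = 0.955). For tissue 0% of the 246 miRNAs passed, and 15 had an unadjusted p under 0.05. The log2 AML ratio of miR-378a-3p in spleen less that in BM was -0.31 (95% normal interval from counting error -0.49 to -0.14). It was -0.11 (-0.28 to 0.07) on total counts and -0.58 (-0.76 to -0.41) with DESeq2 size factors. For miR-378a-5p this gap was -0.50 (-1.16 to 0.17), and -0.77 (-1.43 to -0.10) with DESeq2 size factors. Over 186 miRNAs compared in both tissues the median size of the gap was 1.48, and 21 had a smaller gap than miR-378a-3p.

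The balance of the arms within a library does not depend on scaling. The 5p arm held 7.39% of miR-378a reads in AML spleen (95% exact binomial interval 5.79% to 9.26%), 4.93% in AML BM (3.82% to 6.25%), 9.92% in normal spleen (8.67% to 11.3%) and 5.93% in normal BM (4.42% to 7.76%). The 3p arm thus outnumbered the 5p arm 12.5-fold in AML spleen, 19.3-fold in AML BM, 9.08-fold in normal spleen and 15.9-fold in normal BM. The share of the 5p arm was higher in each spleen library than in the BM library of the same state.

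The odds of a 3p over a 5p read in AML spleen were 0.65 times those in AML BM (95% exact conditional interval 0.45 to 0.94), and those in normal spleen 0.57 times those in normal BM (0.41 to 0.79). Leukaemic spleen had odds 1.38 times those of normal spleen (1.03 to 1.86), and leukaemic BM 1.21 times those of normal BM (0.81 to 1.81). None of these shifts reached 2-fold. Other hairpins were compared when both arms were detected in each library and had 30 counts or more in the larger. With miR-378a among them, 36.4% shifted at least 2-fold with an interval that excluded 1 for AML spleen against AML BM, and 45% for normal spleen against normal BM. The shares were 45.9% for AML spleen against normal spleen and 31.2% for AML BM against normal BM. With each library given equal weight the 3p share of miR-378a averaged 93.0%, and 24 of 86 hairpins that had 30 or more reads in each library had a higher mean 3p share.

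Of the related rows, miR-378c was highest in AML spleen. It had 111 counts in AML spleen, 97 in AML BM, 158 in normal spleen and 81 in normal BM, or 575, 346, 403 and 391 CPM in that order. The log2 ratio was 0.51 (0.15 to 0.87) for AML spleen against normal spleen and 0.73 (0.33 to 1.14) for AML spleen against AML BM, neither of them 2-fold. For AML BM against normal BM it was -0.18 (-0.62 to 0.27). The log2 ratio of AML spleen against normal spleen moved with the scaling, to 0.76 (0.40 to 1.12) on total counts. With DESeq2 size factors it was 0.27 (-0.09 to 0.63), within counting error. Among reads of miR-378c and miR-378a-3p together, miR-378c held 11.4% in AML spleen (9.45% to 13.5%), 7.29% in AML BM (5.95% to 8.82%), 7.83% in normal spleen (6.69% to 9.08%) and 9.43% in normal BM (7.56% to 11.6%). Its odds against miR-378a-3p in AML spleen were 1.51 times those in normal spleen (1.16 to 1.97) and 1.63 times those in AML BM (1.21 to 2.20). The rarer miR-378b had 10 counts in AML spleen, 8 in AML BM, 4 in normal spleen and 4 in normal BM, too few to compare.

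**Figure D4:**
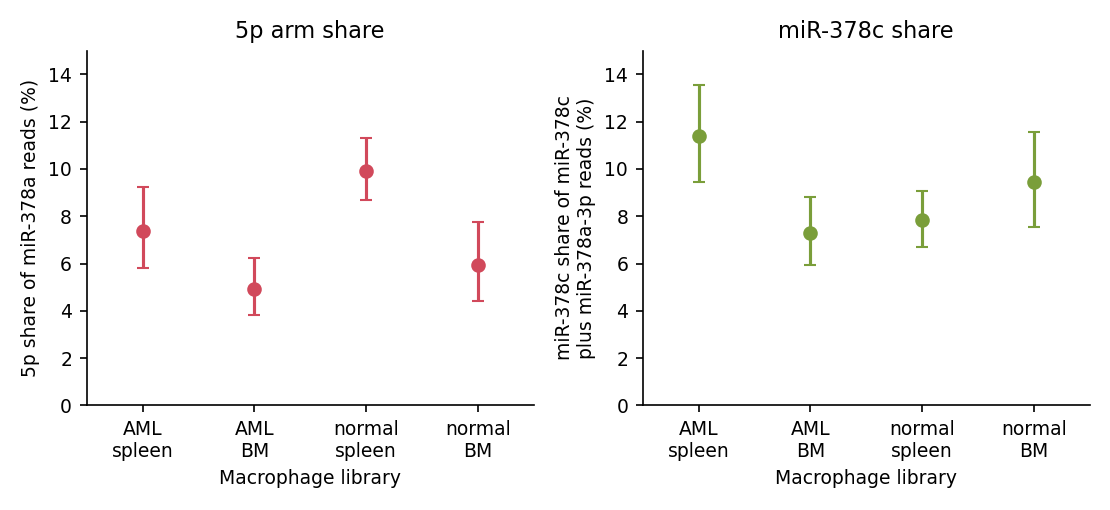
Share of the 5p arm among miR-378a reads (left) and of miR-378c among miR-378c and miR-378a-3p reads (right), in percent, with 95% exact binomial intervals, in the 4 macrophage libraries. The 5p share is highest in normal spleen at 9.92%, and the miR-378c share in AML spleen at 11.4%.

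The miRNAs whose pattern over the 4 libraries was most like that of each arm were found by the root mean square difference of centred log2 CPM among the 144 miRNAs. With 4 libraries this is a description only. For miR-378a-3p they were miR-296-3p (0.10), miR-7a-5p (0.11), miR-320-3p (0.12), miR-26a-5p (0.14) and miR-27a-3p (0.15). Of these miR-26a-5p was the most abundant, at 19328 CPM in AML spleen, 20595 CPM in AML BM, 23989 CPM in normal spleen and 21078 CPM in normal BM. For miR-378a-5p they were miR-22-3p (0.11), miR-671-5p (0.12), miR-1843a-5p (0.13), miR-185-5p (0.15) and miR-140-3p (0.17). The level of miR-22-3p was 2016 CPM in AML spleen, 1505 CPM in AML BM, 3290 CPM in normal spleen and 1635 CPM in normal BM, so it too was higher in spleen. The arms of miR-378a were not close to each other by this measure: their difference was 0.41, and miR-378a-5p was in position 46 among the neighbours of miR-378a-3p.

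Other miRNAs tied to alternative macrophage activation did not move one way. Of 11 listed, 6 could be compared for AML spleen against normal spleen, with 2 higher, 1 lower and 3 neither, a share close to the 46.3% called of all miRNAs. Their median log2 ratio was -0.52, beside -0.25 for all miRNAs. With DESeq2 size factors 3 were lower, but 68 of all 216 miRNAs were then lower too, where TMM factors gave 46. For AML BM against normal BM 1 was higher, miR-223-5p at 1.39, which is also in the myeloid list below, and the other 5 were neither. Of all miRNAs 25.5% were called there, and the list median was -0.12, beside 0.0029 for all. The abundant members were miR-21a-5p, let-7c-5p, miR-146a-5p and miR-125a-5p. In AML spleen against normal spleen these had log2 ratios of 1.44, -0.84, -2.04 and -0.21, and in AML BM against normal BM -0.71, -0.37, 0.13 and 0.20. Of the list, miR-124-3p had 5 counts in AML spleen and 0 in the other libraries, and miR-132-3p had at most 4 in any library.

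The list of classical, inflammatory activation had 4 of 6 members compared. In AML spleen against normal spleen 2 were higher and 1 lower, the last being miR-155-5p at -2.09. On total counts 3 were higher, but 64 of all 216 miRNAs were then higher too, where TMM factors gave 54. In AML BM against normal BM 1 was higher, miR-155-5p at 2.40, and 1 lower, miR-9-5p at -1.19. Its other abundant members, miR-125b-5p and miR-127-3p, had log2 ratios of 0.86 and 2.27 in the spleen comparison and -0.08 and -0.71 in the marrow comparison. The medians were 1.57 for the spleen comparison, beside -0.25 for all miRNAs, and -0.40 for the marrow comparison, beside 0.0029. Of all miRNAs 46.3% were called in the spleen comparison and 25.5% in the marrow comparison.

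Among miRNAs of lipid and energy metabolism, 10 of 12 were compared. In AML spleen against normal spleen 4 were higher and none was lower, with a median log2 ratio of 0.48 beside -0.25 for all miRNAs. The 4 were miR-143-3p (2.60), miR-122-5p (1.54), miR-34a-5p (1.25) and miR-27b-3p (1.16). Of these miR-143-3p is also in the stroma and endothelium list below, miR-122-5p in the liver list and miR-34a-5p in the alternative activation list. They are thus not a separate result of the metabolic list. The called share of the list was below the 46.3% of all miRNAs (25% higher). With DESeq2 size factors 3 were higher and 1 lower, beside 51 higher and 68 lower of all 216 miRNAs. On total counts 5 were higher, beside 64 of all 216. With TMM factors 54 of all 216 were higher and 46 lower. In AML BM against normal BM none was higher and 1 was lower, beside 25.5% called of all miRNAs, with a median of -0.45 beside 0.0029. The abundant members miR-148a-3p, miR-143-3p, miR-27b-3p and miR-29a-3p had log2 ratios of 0.87, 2.60, 1.16 and -0.95 in the spleen comparison and -0.44, -0.49, -0.55 and -0.45 in the marrow comparison. The sterol regulator miR-33-5p, which like miR-378a is made from the transcript of a metabolic gene, had at most 6 counts in a library.

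For the brown fat list 6 of 11 were compared in spleen. Of these 4 were higher in AML spleen than in normal spleen and none was lower, with a median of 1.40. Beside this 46.3% of all miRNAs were called (25% higher), and the median of all was -0.25. With DESeq2 size factors 3 of the list were higher, beside 51 of all 216 miRNAs, where TMM factors gave 54. In marrow 8 were compared, with 1 higher and 2 lower in AML BM than in normal BM. Their median was -0.54, beside 25.5% called of all miRNAs and a median of 0.0029. On the reduced totals 1 of the list was lower, beside 23 of all 216 miRNAs, where TMM factors gave 26. The most abundant member of the list, miR-328-3p, had log2 ratios of -0.62 in the spleen comparison and 0.55 in the marrow comparison. Those of miR-30c-5p were 1.20 and -0.59. For miR-30b-5p they were 1.60 and -0.49, and for miR-455-5p 2.29 and -0.36. The other arm, miR-455-3p, ran the opposite way, at -0.66 and 3.43, and was the member called higher in marrow. It had 73 counts in AML BM and 5 in normal BM.

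Marker miRNAs of other cell types also differed between the libraries. The striated muscle list, of a tissue rich in miR-378a, had 5 of 7 members detected in every library, while miR-208a-3p and miR-208b-3p had no row in the count table. Its summed level was 12346 CPM in AML spleen, 10588 CPM in AML BM, 2334 CPM in normal spleen and 36022 CPM in normal BM, a range of 15.4-fold. The library with the most muscle miRNA, normal BM, had the lowest miR-378a-3p, and the library with the least, normal spleen, had the highest (AML spleen on total counts and on the reduced totals). The part of muscle in the level of miR-378a-3p was not tested. The stroma and endothelium list summed to 22012 CPM in AML spleen, 22057 CPM in AML BM, 3642 CPM in normal spleen and 31817 CPM in normal BM, with 7 of 7 detected in every library. Summed liver miRNAs, 2 of 2 detected, were 7593 CPM in AML spleen, 8709 CPM in AML BM, 1926 CPM in normal spleen and 15513 CPM in normal BM.

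The lymphocyte list ran the other way, with 44864 CPM in AML spleen, 38345 CPM in AML BM, 102219 CPM in normal spleen and 14447 CPM in normal BM and 4 of 4 detected in every library. Most of this sum was miR-181a-5p, with 33057 CPM in AML spleen and 36519 CPM in AML BM. AML spleen against AML BM had a log2 ratio of -0.14 for miR-181a-5p. For miR-150-5p, miR-150-3p and miR-342-3p it was 2.68, 2.82 and 2.37, so the summed level hides a difference between the leukaemic libraries. In AML spleen against normal spleen miR-150-3p was 0.40, while the other members had negative ratios. The myeloid list, miR-223 and miR-142a, summed to 2488 CPM in AML spleen, 1797 CPM in AML BM, 7179 CPM in normal spleen and 723 CPM in normal BM, again with 4 of 4 detected. Most of the myeloid sum was miR-142a, whereas miR-223-5p ran otherwise, with 51.8 CPM in AML spleen, 531 CPM in AML BM, 91.8 CPM in normal spleen and 203 CPM in normal BM. The summed levels of both lists were highest in normal spleen, as miR-378a-5p was, and their part in the level of miR-378a-5p was not tested. Known as an abundant miRNA of myeloid cells, miR-223-3p had 4 counts in AML spleen, 12 in AML BM, 28 in normal spleen and 10 in normal BM. Summed erythroid miRNAs (4 of 4 detected) differed 1.28-fold, between 7664 and 9784 CPM, but the sum joins members with opposite patterns. Normal spleen against normal BM had a log2 ratio of -3.43 for miR-451a (474 CPM against 5126 CPM) and of 1.01 for miR-486a-5p (8840 CPM against 4403 CPM). The list of MLL-rearranged blasts (3 of 3 detected) summed to 5667 CPM in normal spleen and 33167 CPM in normal BM. It was 21333 CPM in AML spleen and 24154 CPM in AML BM, and most of this sum was miR-10a-5p. The highest sum was thus in a library without leukaemia, so the list cannot be read as an amount of blasts here. Of that list miR-196b-5p was highest in AML BM, at 699 CPM, with 25.9 CPM in AML spleen, 86.7 CPM in normal spleen and 386 CPM in normal BM. In bulk libraries, fewer cells of a type and less RNA per cell cannot be told apart.

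**Figure D5:**
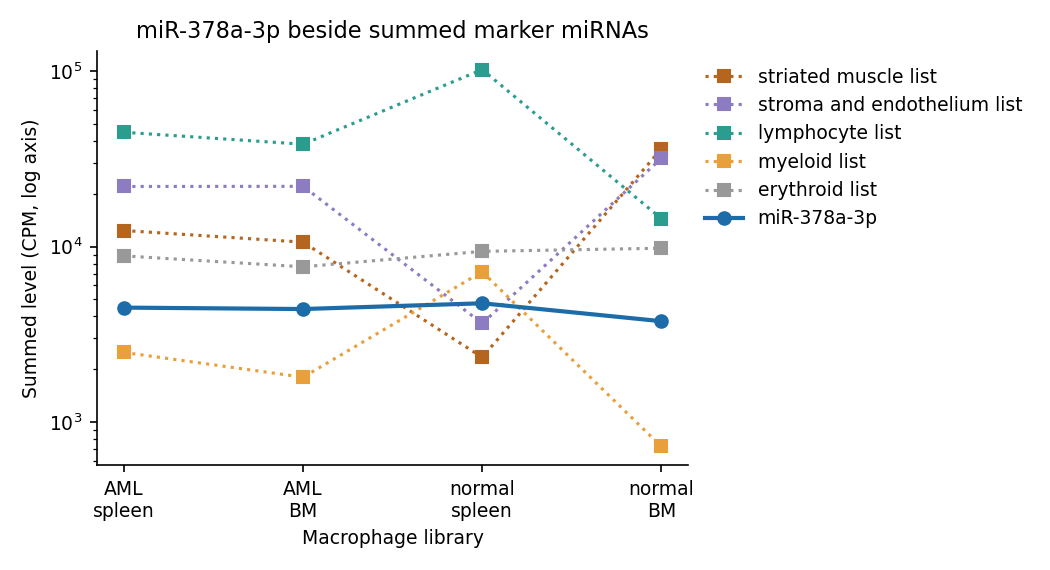
Level of miR-378a-3p beside summed levels of marker miRNA lists (CPM of the TMM-scaled library, log axis) in the 4 macrophage libraries; lines only join points of a list. miR-378a-3p spans 3752 to 4746 CPM, while the striated muscle list spans 2334 to 36022 CPM and the lymphocyte list 14447 to 102219 CPM.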

How the data were processed

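Small RNA of sorted macrophages was sequenced by Illumina HiSeq, per the labels' protocols. The deposited table holds the authors' read counts per miRNA and TPM values, named so per the file headers. Each deposited TPM value equalled the count divided by its library total, times 1000000. The sources used here name no aligner, counting tool or genome build. TPM was used only for that check.

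Libraries were assigned to groups by title. Counts were scaled with TMM factors of edgeR 4.0.16 (1.07 for AML spleen, 1.03 for AML BM, 0.900 for normal spleen and 1.00 for normal BM) in R 4.3.3, and ratios, shares and intervals were computed with scipy 1.17.1. Compared miRNAs had at least 30 counts in the larger library. Without molecular identifiers, reads are not independent molecules. The additive model used edgeR's quasi-likelihood test with Benjamini-Hochberg adjustment, with DESeq2 1.42.0 and limma 3.58.1 (prior count 2) as alternatives. The intervals and the model were also run on simulated counts, which had less spread between libraries than these data. Those runs therefore do not show how either performs here. Named miRNAs were the arms, the miR-378 rows, the 5 nearest to each arm, and the 4 most abundant of each activation or metabolic list. The members and lists were chosen with earlier results of these data known. The arm balance of other hairpins, the miR-378c share, the tissue term and the order by range were added after the values were seen. Sequences of miR-378b, miR-378c and miR-378d were read from RefSeq (GRCm38.p6). Those of the miR-378a arms were not among the sequences used, so likeness to them was not measured.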

Additional observations from a re-analysis of the deposited data

Results flagged for a closer look

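The AML ratio of miR-378a-3p had opposite signs in the 2 tissues, lower in AML spleen than in normal spleen and higher in AML BM than in normal BM. The log2 ratio in spleen less that in BM was -0.312, from log2 ratios of -0.08 and 0.23, and with 1 library per group this difference was not tested. The spleen ratio alone had an interval that held 0 (-0.20 to 0.03). With scaling on total counts the spleen ratio was 0.17, and on totals that leave out the 10 most abundant miRNAs it was 0.03, so that both tissues had positive ratios. With DESeq2 size factors the signs stayed opposite, at -0.32 (-0.44 to -0.20) in spleen and 0.26 in BM.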

How the results depend on the processing

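With DESeq2 size factors, total counts or totals without the 10 most abundant miRNAs as scaling, both arms kept their direction and their side of 2-fold except as follows. On total counts the miR-378a-3p ratio of AML spleen against normal spleen was 0.17 (log2) and the miR-378a-5p ratio of normal spleen against normal BM fell short of 2-fold, at 0.99. On totals without the 10 most abundant, the miR-378a-3p ratio of AML spleen against normal spleen was 0.033 and the miR-378a-5p ratio of AML BM against normal BM 0.064. With DESeq2 the miR-378a-3p ratio of AML spleen against AML BM was -0.0058, and its AML effect over both tissues -0.031. A scaling moves all ratios of a comparison alike; the DESeq2 fit changed the test as well as the scaling, and the cause was not tested. Numbers of miRNAs past 2-fold moved with the count minimum, by its construction: with 1 count and 100 counts they were 179 and 64 for AML spleen against normal spleen, 119 and 24 for AML BM against normal BM, 259 and 96 for normal spleen against normal BM, and 141 and 37 for AML spleen against AML BM. Under a minimum of 100 counts miR-378a-5p could not be compared in AML BM against normal BM or in AML spleen against AML BM. Summing the miR-378b and miR-378c rows into miR-378a-3p, chosen after seeing the data, and taking them off its row for the arm share changed no call or direction. No paired analysis was possible because each group holds 1 library and the labels pair none; the additive model has tissue as a term. Depth limits miR-378a-5p, with 49 to 205 counts a library, and miR-378b, with 4 to 10, was too thinly covered to compare.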
